A study of Rattus norvegicus with 6 samples.

Results

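The 32 genes described here are those of the interferon response and of antigen presentation by the major histocompatibility complex (MHC), out of 15284 rat genes that could be named on the array. They were taken from a given list of gene symbols and fall into 6 regulators (Irf1, Irf3, Irf7, Irf8, Irf9 and Stat2), 11 interferon-induced effectors, 9 genes of the MHC class I pathway and 6 of MHC class II. A probe carrying a RefSeq transcript of the gene was found for 31 of them (59 probes). Ddx58, the RNA sensor RIG-I, had none matched, because the gene table used for naming did not hold that symbol. Whether the array carries a probe for it was not settled. The class II gene RT1-Ba had 1 probe, dim on all 6 arrays (not well above background), so that 30 genes were tested among 11748.

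The tissue was renal cortex of male Sprague-Dawley rats (Crl:CD(SD)), an outbred stock, bought at 5 weeks of age and kept on a basal diet. The control group of 3 rats received corn oil, and the treated group of 3 rats received 2-amino-4-nitrophenol, a nitro-substituted aminophenol known as a hair dye ingredient, in a dose of 750 mg/kg/day, both over 4 weeks. Total RNA of each animal was hybridised to 1 single-colour oligonucleotide array. The p-values below measure the spread between these animals. Markers of the cortex were present: all 5 proximal tubule markers (Slc34a1, Lrp2, Cubn, Aqp1 and Slc5a2) were measured on the arrays of both groups. Of these, Lrp2 (-0.34 ± 0.10) and Cubn (-0.52 ± 0.21) were lower at an unadjusted p under 0.05, given as log2 changes. So were the distal markers Slc12a3 (-0.53 ± 0.16) and Scnn1g (-0.45 ± 0.15). Umod of the thick ascending limb was higher (0.45 ± 0.12), but at 0.17 and not called with quantile normalization. Of all genes tested 14.3% were higher and 7.29% lower at that threshold. The other tested markers of these segments did not pass: Slc34a1 (0.19), Aqp1 (0.01), Slc5a2 (-0.15) and Aqp2 (0.18). The part of cell makeup in the values below was not tested. The comparison asks which of the 32 genes differed between the dosed and the corn oil animals.

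Interferons bind receptors that activate STAT and IRF transcription factors, which switch on antiviral effectors such as the Mx, Oas and Ifit proteins. Type II interferon in particular also raises the immunoproteasome, the peptide transporter and the MHC molecules. Class I molecules show peptides cut by the proteasome and are made by nearly all cells. Class II molecules are made mainly by dendritic cells, macrophages and B cells, and in the kidney also by tubular cells under inflammation.

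Levels are given as the log2 of the probe's processed signal relative to the 75th percentile of its array, and a change is the treated mean minus the corn oil mean on that scale, with the standard error (SE) from limma. Levels of different probes are not comparable with each other. The 5 proteasome members of the class I pathway had positive changes of 0.24 to 0.50, and of the 10 measured effectors 5 had a positive and 5 a negative change. The difference between classes was not tested. Over all genes the median change rose with brightness, from -0.12 in the dimmest 10% of genes to 0.23 in the brightest 10%, which hold Psme1 and Psme2. Under Benjamini-Hochberg adjustment in limma 0 of the 30 genes passed 0.05, against 3 of all 11748 genes (0.0255%). The lowest adjusted p among them was 0.126, for Psme2. At an unadjusted p under 0.05, 3 of the 30 were higher (Irf1, Psme1 and Psme2), a smaller share than the 14.3% of all genes tested, and 1 was lower (Irf8), against 7.29% of all genes. All treated arrays lay above all corn oil arrays for Irf1, Psme1 and Psme2, against 20.1% of all genes, and below them for 1 gene, Ifit2, against 10.1%. These shares do not set the 30 genes apart from the rest of the array.

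Single arrays weigh on these counts. Without treated replicate 1, 8 genes were higher at an unadjusted p under 0.05 (B2m, Gbp2, Irf1, Psmb8, Psmb9, Psmb10, Psme1 and Psme2) and 0 lower, against 20.05% and 10.68% of all genes, and the lowest adjusted p in limma was 0.0647. Irf8 was no longer lower at that threshold without corn oil replicate 1 or 3 or treated replicate 1, 2 or 3, and without treated replicate 2 the 2 lower genes were Ifit2 and Irf3. Corn oil replicate 2 was the only array on another slide, and without it Irf1, Psme1 and Psme2 were again higher and Irf8 lower. On the shared slide the groups lay in different rows, so row and group cannot be told apart there. The treated arrays were also dimmer before scaling, with a 75th percentile of 564 to 685 against 743 to 852, and with 61.6% to 66.3% of probes well above background against 68.1% to 70.9%. Scaling on 7 spike-in probes in place of the 75th percentile lowered the median change of all genes by 0.32 on the log2 scale, from 0.04 to -0.28. Only Irf1, Psmb8, Psmb9, Psmb10 and Psme2 then kept a positive change, 0 genes were higher at an unadjusted p under 0.05 and 5 were lower (Ifit2, Irf3, Irf8, Irf9 and Mx1). Every direction below is therefore relative to the array's other genes, and which of the scalings is nearer to RNA amounts was not tested.

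**Figure D1:**
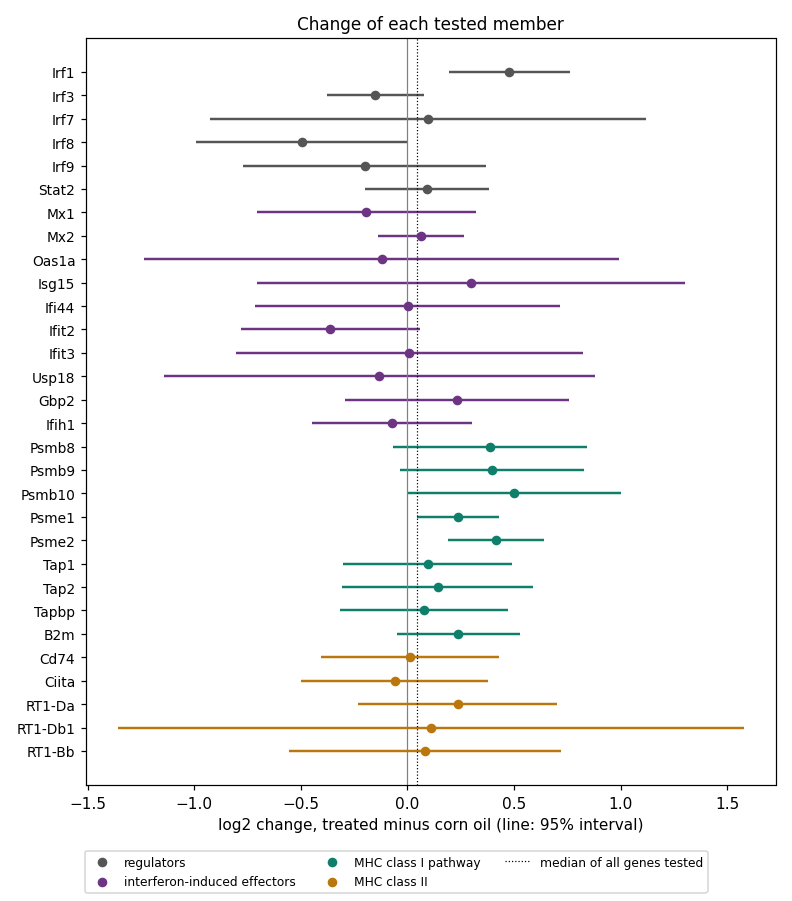
The horizontal axis gives the log2 change, treated minus corn oil (n = 3 arrays per group), of each of the 30 tested genes after scaling on the 75th percentile, and each line is its 95% interval. The dotted line is the median of all genes tested, 0.04; the intervals of Irf1, Psme1 and Psme2 lie above 0 and that of Irf8 below it, and scaling on spike-in probes would move every point down by 0.32.

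Among the regulators, whose median change was -0.03, Irf1 was the one gene whose groups did not overlap. Irf1 is a transcription factor induced by interferon gamma that acts on class I genes. Its levels were 2.05, 1.93 and 1.86 on corn oil replicates 1, 2 and 3 and 2.23, 2.47 and 2.58 on treated replicates 1, 2 and 3. All treated arrays were above all corn oil arrays, with a change of 0.48 ± 0.12 (SE, n = 3 per group; 1.39-fold; 95% interval 0.20 to 0.76; adjusted p = 0.130 in limma). The other Irf1 probe gave 0.10. Irf1 was higher at an unadjusted p under 0.05 under every alternative processing tried but scaling on spike-in probes, where its change was 0.16.

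Irf8, a factor of the macrophage and dendritic cell lineages, pointed the other way. Its levels were -3.82, -4.30 and -3.55 on the corn oil arrays and -4.31, -4.58 and -4.27 on the treated arrays. The groups overlapped through corn oil replicate 2, and the change was -0.50 ± 0.20 (95% interval -0.99 to -0.0015; adjusted p = 0.231 in limma). Irf8 is in the dimmest 10% of the genes tested, where the median change of all genes was -0.12, and with normexp background correction its change was 0.01. In bulk tissue, fewer cells of a type and less RNA per cell cannot be told apart.

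The other 4 regulators did not pass at an unadjusted p under 0.05. Irf3, the constitutive factor that starts interferon production, had levels of 5.03, 4.99 and 5.08 on the corn oil arrays and 4.85, 5.03 and 4.77 on the treated arrays. Its groups overlapped at treated replicate 2, and its change was -0.15 ± 0.09 (95% interval -0.38 to 0.08). Irf3 is in the brightest 10% of the genes tested, where the median change of all genes was 0.23. With quantile normalization its change was -0.36, and it was lower at an unadjusted p under 0.05. Irf7, which amplifies the type I response, varied more within groups than between them, with 0.23, 1.03 and 1.31 against 0.19, 1.57 and 1.09. Its change of 0.10 ± 0.42 has a 95% interval of -0.93 to 1.12. Irf9 and Stat2, which are parts of the factor that binds interferon-stimulated response elements, had changes of -0.20 ± 0.23 and 0.09 ± 0.12. The Irf9 levels were -1.94, -1.37 and -1.35 against -2.16, -1.52 and -1.58, with replicate 1 lowest in each group. The Stat2 levels were 1.96, 1.90 and 2.10 against 1.88, 2.11 and 2.25, and the groups overlapped.

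Promoter windows from RefSeq (GRCr8, from 250 bases before to 50 after the annotated start) were available for 26 of the 32 genes and were searched on both strands for 3 short motifs. The core of the interferon-stimulated response element, the site of the factor that holds IRF9, was spelled GAAANNGAAA and stood in 13 of the 26 windows, against 3.77% of 27457 promoters. The gamma-activated site, through which type II interferon acts, was spelled TTCNNNGAA and stood in 5 of the 26, against 8.68%. The inverted CCAAT box of the class II Y box, ATTGG, stood in 14 of the 26, against 37.7%. No match of one motif overlapped a match of another in these 26 windows, but matches of the response element overlapped each other in Oas1a and Tapbp. A match is a description of the letters in the window, and no binding was measured. Among the regulators the response element stood in 1 of 6 windows, that of Irf7, and the gamma-activated site in 3 of 6, Irf1, Irf8 and Irf9. The Irf1 and Irf7 stretches are shown because the groups of Irf1 did not overlap and Irf7 varied between animals. They lie at chr10:38417775-38417819 (plus strand) for Irf1 and chr1:205800065-205800110 (minus strand) for Irf7, and the capitals mark the motif, here the gamma-activated site in Irf1 and the response element, read on the opposite strand, in Irf7.
Irf1: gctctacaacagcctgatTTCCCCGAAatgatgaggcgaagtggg
Irf7: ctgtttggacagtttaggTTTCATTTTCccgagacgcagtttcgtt

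Of the wider interferon signalling genes, 18 of 22 listed (other than the 6 regulators) were tested, with a median change of -0.06. At an unadjusted p under 0.05, 0 were higher and 4 lower, against 14.3% and 7.29% of all genes, and 0 passed the adjusted threshold in limma. The 3 with the lowest p were Tbk1, a kinase that activates IRF3 (-0.37 ± 0.09), Trim25, a ubiquitin ligase of the RIG-I pathway (-0.33 ± 0.09), and the receptor kinase Jak1 (-0.25 ± 0.07). Stat3, at -0.21 ± 0.08, was the fourth and is named after its value was seen. For each of the 4 all treated arrays lay below all corn oil arrays, and the change was negative under all 4 scalings. Of the 18 genes, 6 had all treated arrays below all corn oil arrays and 1 above, against 10.1% and 20.1% of all genes. The count lower at an unadjusted p under 0.05 was 2 without treated replicate 3.

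The interferon-induced effectors spread widely between animals of a group. Over the 10 measured genes the median change was -0.04, with 5 positive and 5 negative, and 0 passed at an unadjusted p under 0.05 in either direction. The median SD within a group was 0.32 on the corn oil arrays and 0.47 on the treated arrays, against 0.10 and 0.17 over all genes tested. After subtracting the corn oil mean of each gene, the median of the 10 was -0.25, -0.06 and 0.36 on corn oil replicates 1, 2 and 3 and -0.56, 0.28 and 0.13 on treated replicates 1, 2 and 3. Treated replicate 1 was the lowest array for 8 of the 10 genes, against 16.8% of all genes. Corn oil replicate 3 was the highest for 5 of them, against 9.78% of all genes. The median change of the 10 became 0.28 without treated replicate 1 and 0.12 without corn oil replicate 3, so that 1 array decides its sign.

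Isg15, a ubiquitin-like modifier, shows the pattern. Its levels were 0.02, 0.07 and 0.87 on the corn oil arrays and -0.21, 1.22 and 0.84 on the treated arrays. Corn oil replicate 3 and treated replicates 2 and 3 were high and the other 3 arrays low, and the change was 0.30 ± 0.41 (95% interval -0.71 to 1.30; adjusted p = 0.701 in limma). Oas1a, which makes the 2-5A signal that activates RNase L, had levels of -0.22, 0.49 and 0.90 against -0.64, 0.85 and 0.60. Its lowest array was again treated replicate 1 and its highest corn oil replicate 3, with a change of -0.12 ± 0.46. Usp18, which removes ISG15 from proteins and restrains the interferon receptor, had levels of -2.84, -2.47 and -1.93 against -3.42, -2.05 and -2.16. The order of the 6 arrays was that of Oas1a, and its change was -0.13 ± 0.42.

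Ifit2, an RNA-binding inhibitor of translation, was the one effector whose treated arrays all lay below the corn oil arrays. Its levels were -1.80, -1.81 and -1.50 against -2.39, -1.84 and -1.95. The gap between the groups was small beside the spread, and the change was -0.36 ± 0.17 (95% interval -0.78 to 0.06; adjusted p = 0.28 in limma). The other Ifit2 probe, well above background on 2 of the 3 treated arrays, gave -0.52, and its groups overlapped. Ifit3, which lies in the same family, had levels of -3.14, -2.80 and -2.34 against -3.41, -2.56 and -2.29. The Ifit3 groups overlapped, with a change of 0.01 ± 0.34. The other Ifit3 probe gave -0.30. Ifi44, of unsettled function, was at -0.37, -0.16 and 0.35 against -0.56, 0.42 and -0.04, with a change of 0.00 ± 0.29.

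Mx1 and Mx2 are dynamin-like GTPases that block viral replication. Mx1 levels were 1.35, 1.43 and 1.84 on the corn oil arrays and 0.96, 1.56 and 1.53 on the treated arrays. The groups overlapped, with treated replicate 1 lowest and corn oil replicate 3 highest, and the change was -0.19 ± 0.21. The other Mx1 probe, well above background on 2 of the 3 treated arrays, gave -0.87, the mean over both probes -0.53, and without treated replicate 1 the change was 0.005. The brightest Mx2 probe, A_64_P108623, was nearly level, at 6.08, 6.27 and 6.12 against 6.25, 6.23 and 6.19, with a change of 0.06 ± 0.08. The other Mx2 probe, A_44_P214846, well above background on 2 of the 3 treated arrays, did not follow it. Its levels were -4.24, -3.97 and -2.90 against -5.37, -3.59 and -3.44, with treated replicate 1 lowest and corn oil replicate 3 highest, as for Mx1. Gbp2, a guanylate-binding protein induced by interferon gamma, was at 0.61, 0.77 and 0.72 against 0.44, 1.11 and 1.25. Treated replicates 2 and 3 were above and treated replicate 1 below every corn oil array, with a change of 0.23 ± 0.22. Ifih1, the RNA sensor MDA5, had a change of -0.07 ± 0.15 (95% interval -0.45 to 0.30), with levels from -3.58 to -3.12 in the corn oil group and from -3.66 to -3.32 in the treated group.

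**Figure D2:**
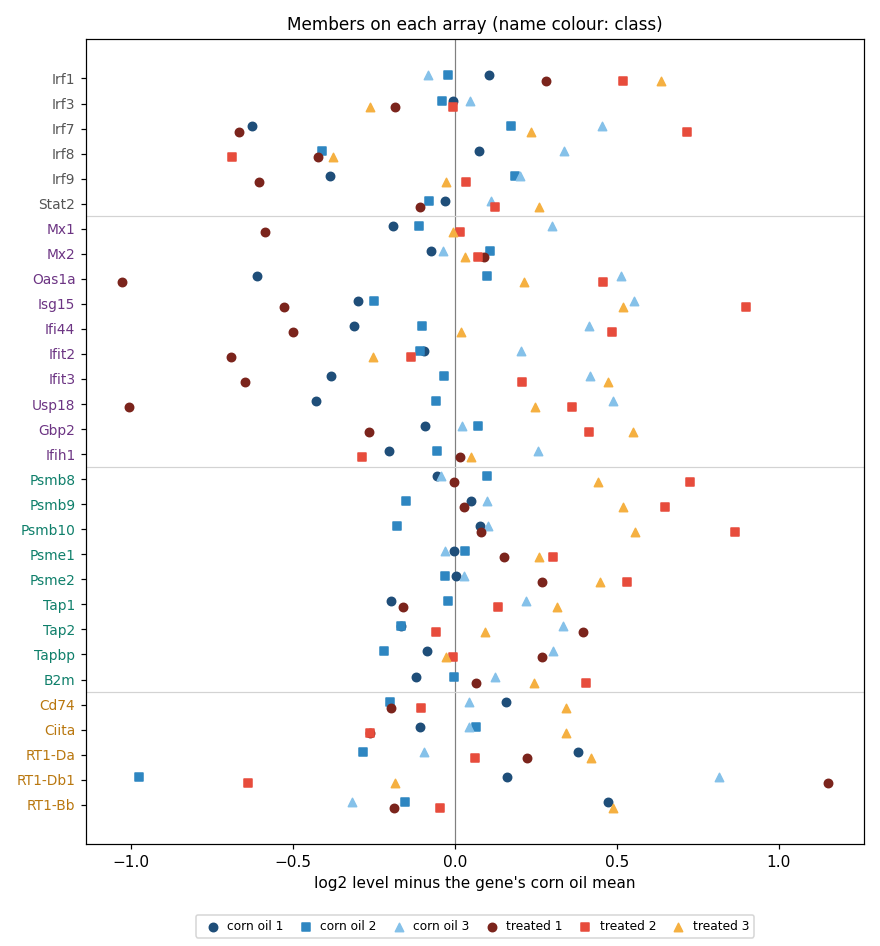
Each row is a gene and the horizontal axis is its log2 level on an array minus its own mean over the 3 corn oil arrays, after scaling on the 75th percentile; blue points are corn oil and red to orange points treated arrays, and name colours mark the 4 classes from regulators (top) to class II (bottom). In the effector block treated replicate 1 lies far left and corn oil replicate 3 right for most genes, whereas in the proteasome rows (Psmb8 to Psme2) treated replicates 2 and 3 lie right of all corn oil arrays.

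The response element stood in 5 of the 6 effector windows searched: Oas1a, Ifi44, Ifit3, Gbp2 and Ifih1, but not Mx1. Promoters of Mx2, Isg15, Ifit2 and Usp18 were not analysed here. The Ifit3, Gbp2 and Oas1a stretches are shown as examples of the motif in this class. They lie at chr1:241527264-241527309 (plus strand) for Ifit3, chr2:234005678-234005723 (plus strand) for Gbp2 and chr12:41330407-41330452 (plus strand) for Oas1a, with the response element in capitals.
Ifit3: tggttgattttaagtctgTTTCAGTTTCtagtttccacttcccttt
Gbp2: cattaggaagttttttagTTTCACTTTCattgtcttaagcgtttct
Oas1a: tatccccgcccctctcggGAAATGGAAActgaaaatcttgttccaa
In Ifit3 and Gbp2 it reads on the opposite strand, 44 and 31 bases before the start, and in Oas1a on the gene's strand, 41 bases before it.

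A wider list of interferon-stimulated genes outside the 32 gave 27 tested of 34, with a median change of 0.13. At an unadjusted p under 0.05, 1 was higher and 2 were lower, against 14.3% and 7.29% of all genes, and 0 passed the adjusted threshold in limma. Without treated replicate 1, 7 were higher, against 20.05% of all genes, and the median was 0.06. It was 0.05 with quantile normalization, -0.19 with spike-in scaling, and 0.04 and 0.02 without corn oil replicate 2 and treated replicate 2. The higher gene with all arrays was Rsad2, viperin, an antiviral enzyme, with levels of 1.18, 0.56 and 0.58 against 1.67, 1.41 and 1.70. All treated arrays were above all corn oil arrays, and the change was 0.82 ± 0.19 (95% interval 0.36 to 1.28; adjusted p = 0.130 in limma), positive under all 4 scalings. The lower genes were the 2-5A synthetase Oas3 (-0.87 ± 0.26) and its relative Oasl (-0.44 ± 0.16), both negative under all 4 scalings. Oasl was well above background on 3 corn oil arrays and 1 treated array, so it passed the filter through the corn oil group. Rsad2 was not low on treated replicate 1, the array on which 8 of the 10 measured effectors were lowest.

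The class I pathway was the class with a common sign. All 9 genes had a positive change, from 0.08 to 0.50, against 57.4% of all genes, with a median of 0.24 against 0.04 over all genes tested. The positive median held with quantile normalization (0.12) and median scaling (0.27) and turned to -0.08 with spike-in scaling. Of the 9, 2 were higher at an unadjusted p under 0.05, Psme1 and Psme2, and 0 lower, against 14.3% and 7.29% of all genes. The 5 proteasome genes, Psmb8, Psmb9, Psmb10, Psme1 and Psme2, had a median change of 0.40, and the 4 genes of peptide transport and assembly, Tap1, Tap2, Tapbp and B2m, one of 0.12. Treated replicate 2 was the highest array for all 5 proteasome genes, and for 35.8% of all genes.

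Psme1 and Psme2 encode the PA28 alpha and beta subunits, which form a ring that opens the proteasome for peptide release. Psme2 levels were 4.90, 4.87 and 4.93 on the corn oil arrays and 5.17, 5.43 and 5.35 on the treated arrays. All treated arrays were above all corn oil arrays, and the change was 0.42 ± 0.09 (1.33-fold; 95% interval 0.19 to 0.64; adjusted p = 0.126 in limma). The other Psme2 probe gave 0.36. Psme1 levels were 5.05, 5.08 and 5.02 against 5.20, 5.35 and 5.31. Again no array overlapped, with a change of 0.24 ± 0.08 (1.18-fold; 95% interval 0.05 to 0.43; adjusted p = 0.177 in limma), and the other Psme1 probe gave 0.17. With spike-in scaling the change of Psme2 was 0.10 and that of Psme1 -0.08. Both genes are in the brightest 10% of the genes tested, where the median change of all genes was 0.23; the part of brightness in their values was not tested.

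Psmb8, Psmb9 and Psmb10 encode the 3 catalytic subunits of the immunoproteasome, which change the peptides cut for class I. Psmb10 levels were 2.63, 2.38 and 2.66 against 2.64, 3.42 and 3.11. Treated replicates 2 and 3 were above every corn oil array while treated replicate 1 lay among them, and the change was 0.50 ± 0.21 (95% interval -0.0035 to 1.00; adjusted p = 0.234 in limma). In Psmb9 and Psmb8 too, treated replicates 2 and 3 were above every corn oil array and treated replicate 1 was within the corn oil range. Psmb9 was at 1.33, 1.12 and 1.38 against 1.30, 1.92 and 1.79, with a change of 0.40 ± 0.18 (95% interval -0.03 to 0.83). Psmb8 was at 0.45, 0.60 and 0.46 against 0.50, 1.23 and 0.95, with a change of 0.39 ± 0.19 (95% interval -0.07 to 0.84). The 3 genes kept a positive change under every alternative tried, from 0.07 to 0.71. Without treated replicate 1 all 3 were higher at an unadjusted p under 0.05.

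Each immunoproteasome subunit takes the place of a constitutive one: Psmb9 that of Psmb6, Psmb10 that of Psmb7 and Psmb8 that of Psmb5. The constitutive genes had changes of 0.42 ± 0.10 for Psmb6, 0.36 ± 0.12 for Psmb5 and 0.17 ± 0.11 for Psmb7, and Psmb5 and Psmb6 were higher at an unadjusted p under 0.05. The within-array difference between partners was compared by a two-sided exact permutation test over the 6 arrays, in which 3 against 3 cannot give a p below 0.10. Psmb9 minus Psmb6 differed by -0.02 between groups (exact p = 1.00), with -1.40, -1.49 and -1.38 on the corn oil arrays and -1.64, -1.32 and -1.36 on the treated arrays. Psmb8 minus Psmb5 differed by 0.03 (exact p = 0.70), with corn oil arrays from -3.98 to -3.94 and treated arrays from -4.09 to -3.77. In both pairs the treated arrays lay on either side of the corn oil arrays. Psmb10 minus Psmb7 differed by 0.33, with -0.52, -0.70 and -0.45 against -0.44, -0.03 and -0.20. Here all treated arrays were above all corn oil arrays (exact p = 0.10, the smallest possible; 0.30 after Benjamini-Hochberg adjustment over the 3 pairs). These differences do not depend on the scaling factor of an array, but other processing can shift them. With quantile normalization the changes were 0.33 for Psmb9 and 0.30 for Psmb6, and 0.36 for Psmb8 and 0.15 for Psmb5. They were 0.385 for Psmb10 and 0.03 for Psmb7.

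Psme3, the PA28 gamma subunit of the nuclear activator and not a classical interferon target, had levels of 2.71, 2.82 and 2.77 against 3.13, 3.39 and 3.28. Its groups did not overlap, with a change of 0.50 ± 0.10 (95% interval 0.27 to 0.73; adjusted p = 0.113 in limma). With spike-in scaling it was 0.18, Psmb6 0.10, Psmb5 0.04 and Psmb7 -0.15.

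**Figure D3:**
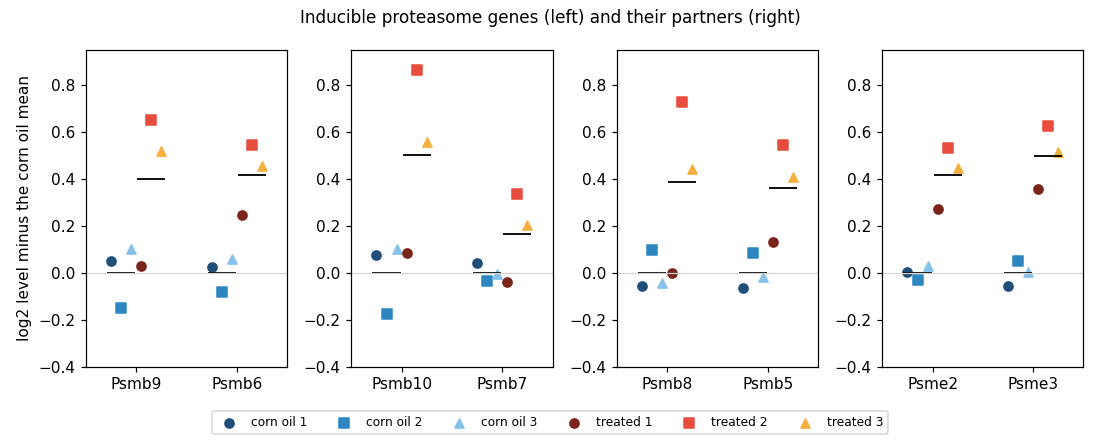
Each panel sets an interferon-inducible proteasome gene (left) beside its constitutive partner or, for Psme2, the related activator gene Psme3 (right); the vertical axis is the log2 level minus the gene's corn oil mean after scaling on the 75th percentile, points are single arrays and bars group means. Treated replicates 2 and 3 are above the corn oil arrays in all 4 panels for both genes, and the treated means of Psmb9 and Psmb6 are 0.40 and 0.42; with spike-in scaling all changes are lower by 0.32.

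Peptide transport and assembly showed less. Tap1 and Tap2 form the transporter that carries peptides into the endoplasmic reticulum. Tap1 levels were -1.88, -1.70 and -1.46 against -1.84, -1.55 and -1.37, and its change was 0.10 ± 0.16. Tap2 levels were 0.57, 0.57 and 1.07 against 1.13, 0.68 and 0.83, and its change was 0.14 ± 0.18 (95% interval -0.31 to 0.59). In both genes corn oil replicate 3 was within the treated range, and the other Tap2 probe gave -0.08. Tapbp, the tapasin that bridges the transporter and class I molecules, was at 0.29, 0.15 and 0.68 against 0.64, 0.37 and 0.34, with overlapping groups and a change of 0.08 ± 0.16. B2m, the light chain of every classical class I molecule, was at 7.39, 7.51 and 7.63 against 7.58, 7.91 and 7.75. Treated replicates 2 and 3 were above all corn oil arrays and treated replicate 1 was within their range, with a change of 0.24 ± 0.12 (95% interval -0.05 to 0.53), and -0.09 and -0.08 with quantile and spike-in scaling. All 5 B2m probes gave a positive change, from 0.02 to 0.31. B2m too is in the brightest 10% of genes, whose median change was 0.23.

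The response element stood in 7 of the 9 class I windows, all but those of Psmb9 and Psme1. Psmb9 and Tap1 face away from each other with starts 457 bases apart, and their windows share 44 bases. The response element of Tap1 lies between these starts, outside the part that the windows share, and so was not counted for Psmb9. The stretches of 5 carriers are shown, from proteasome, transporter and light chain genes. They lie at chr19:50743338-50743383 (minus strand) for Psmb10, chr15:33052777-33052822 (minus strand) for Psme2, chr20:4668637-4668682 (minus strand) for Tap1, chr20:4652310-4652355 (minus strand) for Tap2 and chr3:129549162-129549207 (plus strand) for B2m, with the response element in capitals.
Psmb10: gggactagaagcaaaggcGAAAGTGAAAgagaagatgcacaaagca
Psme2: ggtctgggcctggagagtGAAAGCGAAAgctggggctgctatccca
Tap1: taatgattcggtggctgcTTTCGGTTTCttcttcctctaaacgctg
Tap2: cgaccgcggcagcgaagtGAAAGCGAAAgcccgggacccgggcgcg
B2m: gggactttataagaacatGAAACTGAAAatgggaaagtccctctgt
In Psmb10, Psme2 and Tap2 the letters between the GAAA repeats are GT or GC on the gene's strand. In Tap1 the motif reads on the opposite strand.

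Class I genes outside the 32 gave 12 tested of 16, with a median change of -0.07. Psme3 and Tapbpl, a tapasin-related editor (0.38 ± 0.15), were the 2 genes higher at an unadjusted p under 0.05, and 0 were lower, against 14.3% and 7.29% of all genes. Only 1 was higher without corn oil replicate 1 or 3 or treated replicate 1 or 2, and without treated replicate 1 the median was 0.08. With spike-in scaling 0 were higher and 3 lower. The third by p was the chaperone Canx, at -0.15 ± 0.09. The class I heavy chains RT1-A1, RT1-A2, RT1-CE1 and RT1-CE5, which pair with B2m, had changes of -0.12, -0.10, -0.03 and -0.0046. RT1-M3-1 and RT1-S3 had changes of -0.11 and -0.14. RT1-CE10 had one of 1.11 ± 0.86, and 0.13 without corn oil replicate 3. These genes are close paralogs, so a probe may read more than one of them.

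The class II genes showed no common difference between the groups. The median change of the 5 tested genes was 0.08, with 4 positive, and it was -0.03 with quantile normalization, -0.23 with spike-in scaling and -0.12 without treated replicate 3. In limma 0 of them passed an unadjusted p of 0.05 in either direction. Cd74, the invariant chain that guards the class II groove, was at 5.12, 4.76 and 5.0 against 4.76, 4.85 and 5.30, with overlapping groups and a change of 0.01 ± 0.17 (95% interval -0.41 to 0.43). Ciita, the coactivator that class II transcription depends on, was at -1.78, -1.61 and -1.63 against -1.93, -1.93 and -1.33. Its 3 treated arrays lay on both sides of the corn oil arrays, and its change was -0.06 ± 0.18 (95% interval -0.50 to 0.38). Treated replicate 3 was the highest array for 4 of the 5 genes.

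RT1 is the MHC of the rat, and its genes differ widely between strains. RT1-Da and RT1-Db1 are the chains of the RT1-D molecule, and RT1-Ba and RT1-Bb those of RT1-B. RT1-Da was at 3.29, 2.62 and 2.81 against 3.13, 2.97 and 3.33, with a change of 0.24 ± 0.19 (95% interval -0.23 to 0.70). RT1-Db1 had the widest interval of all 30 genes, with levels of 2.81, 1.67 and 3.46 against 3.80, 2.01 and 2.47 and a change of 0.11 ± 0.61 (95% interval -1.36 to 1.58). Corn oil replicate 3 and treated replicate 1 were its highest arrays and replicate 2 the lowest of each group. These are values of the brightest RT1-Db1 probe. The other 4 probes gave changes of 0.01, 0.08, -0.11 and 1.15 and spanned 0.81, 0.51, 1.14 and 3.41. RT1-Bb was at 3.29, 2.67 and 2.50 against 2.63, 2.78 and 3.31, with overlapping groups and a change of 0.08 ± 0.26. RT1-Ba, not well above background, could not be compared.

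Single probes of RT1-Bb and RT1-Db1 departed from the other probes of their gene. The RT1-Bb probe A_44_P552452 was at 2.73 on corn oil replicate 3 and 3.13 on treated replicate 1, and well above background on these 2 arrays only, at -8.60 and -8.29 on the other corn oil arrays and -7.38 and -7.96 on the other treated arrays. Its range of 11.7 on the log2 scale was the widest of 22104 named probes that were well above background on at least 1 array. The other RT1-Bb probes, A_64_P043911 and A_44_P500803, spanned 0.80 and 1.30. Both had corn oil replicate 3 and treated replicate 1 as their lowest arrays. Levels there were 2.50 and 2.63 for A_64_P043911, against 2.67 to 3.31 on the other arrays. For A_44_P500803 they were 1.41 and 1.72, against 1.96 to 2.71. Of the 5 RT1-Db1 probes, A_44_P139882 was lowest on corn oil replicate 3, at -4.59, against -2.08 to -1.18 on the other arrays. Without corn oil replicate 3 the change of the brightest RT1-Db1 probe was 0.52 and without treated replicate 1 it was -0.41. For this probe 1 array decides the sign.

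**Figure D4:**
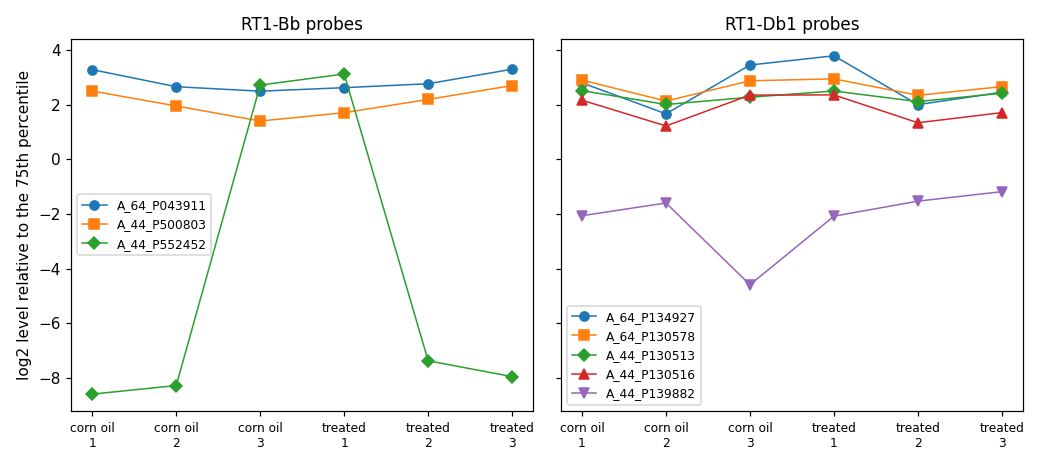
The vertical axis is the log2 level relative to the array's 75th percentile of each probe of RT1-Bb (left) and RT1-Db1 (right) on the 6 arrays; lines only join the points of a probe, and the arrays have no order. The RT1-Bb probe A_44_P552452 stands at 2.73 and 3.13 on corn oil replicate 3 and treated replicate 1 and below -7 elsewhere, and the RT1-Db1 probe A_44_P139882 is at -4.59 on corn oil replicate 3.

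All 5 class II windows searched held the inverted CCAAT box, and 0 held the response element. The windows of the 4 RT1 genes are shown because their boxes share the letters around them. They lie at chr20:4515348-4515388 (plus strand) for RT1-Da, chr20:4576996-4577036 (plus strand) for RT1-Ba, chr20:4560220-4560260 (minus strand) for RT1-Db1 and chr20:4604157-4604197 (minus strand) for RT1-Bb, with the box in capitals.
RT1-Da: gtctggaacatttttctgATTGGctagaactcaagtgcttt
RT1-Ba: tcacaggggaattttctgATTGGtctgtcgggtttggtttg
RT1-Db1: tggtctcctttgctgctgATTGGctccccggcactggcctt
RT1-Bb: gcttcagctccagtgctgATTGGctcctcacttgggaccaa
In each of the 4 the 3 bases before the box shown are ctg, and that box begins 43 to 80 bases before the start. RT1-Db1 and RT1-Bb each hold another box, not shown, on the opposite strand, 55 and 172 bases before the start. Those boxes do not have ctg before them.

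Of the wider class II pathway, 11 of 13 listed genes were tested, with a median change of 0.07. At an unadjusted p under 0.05, 1 was higher and 2 were lower, against 14.3% and 7.29% of all genes, and 0 passed the adjusted threshold in limma. Leaving out treated replicate 1 gave a higher count of 2 and leaving out any other array one of 0, and the lower count was 1 without corn oil replicate 1 or 3 or treated replicate 2 or 3. Cd86, a costimulatory ligand of antigen-presenting cells, was at -4.05, -3.79 and -3.61 against -4.44, -4.61 and -4.38. The groups did not overlap, with a change of -0.66 ± 0.13 (95% interval -0.99 to -0.33; adjusted p = 0.116 in limma). Rfx5 and Rfxank are subunits of the factor that brings CIITA to class II promoters. Rfx5 had a change of -0.99 ± 0.39, from -2.93, -2.94 and -2.84 to -3.01, -4.63 and -4.05, with treated replicate 1 next to the corn oil arrays. Rfxank had a change of 0.28 ± 0.11, and -0.04 with spike-in scaling. RT1-DMa and RT1-DMb, which load peptides on class II, had changes of 0.25 ± 0.19 and 0.20 ± 0.16 with overlapping groups.

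Class II genes and Irf8 are expressed in leukocytes, so leukocyte markers are given beside them. Of 39 listed markers 30 were tested, with a median change of 0.01. At an unadjusted p under 0.05, 1 was higher and 2 were lower, against 14.3% and 7.29% of all genes. The higher one was the B cell marker Cd79b (0.81 ± 0.15), while Pax5, also a B cell marker, had a change of -0.21. The lower ones, listed here as T cell markers, were Cd3e (-0.97 ± 0.38) and Cd4 (-0.45 ± 0.13). Cd3e, like Cd2, was well above background on 3 corn oil arrays but 1 treated array, so it passed the filter through the corn oil group. Those called are named after their values were seen. The summed linear signal of the 30, in units of the 75th percentile, was 102 to 115 in the control group and 117 to 150 in the treated group. Without Lyz2, the lysozyme gene that gives most of this sum, it was 39.6 to 44.6 against 39.9 to 55.0. The sum over all genes tested was also higher on the treated arrays, at 103615 to 104387 against 114410 to 129114. The pan-leukocyte genes Ptprc, Cd53, Laptm5 and Coro1a had a median change of 0.04, the 10 tested macrophage markers one of 0.11 and the 3 tested dendritic cell markers one of -0.15. The 3 tested NK cell markers had a median of 0.24. The 7 genes listed as T cell markers had a median of -0.45, the value of Cd4. Their summed signal was 1.27 to 2.46 against 1.27 to 1.47, highest on corn oil replicate 1, without which the median was -0.12. The macrophage marker Cd163, the dendritic cell marker Xcr1 and the NK cell markers Klrb1 and Ncr1 were not well above background on any array, and Itgam on 1. The part of these cells in the class II and Irf8 values was not tested.

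**Figure D5:**
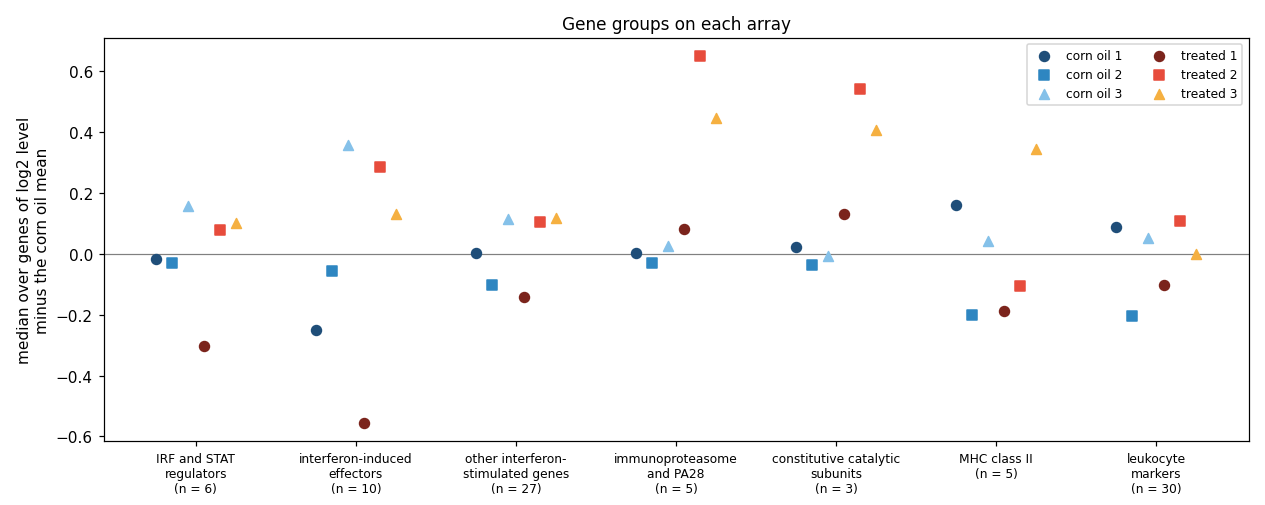
The vertical axis is the median over the genes of a group of the log2 level minus the gene's corn oil mean, after scaling on the 75th percentile, and each point is an array (n is the number of genes). Effectors are spread from -0.56 on treated replicate 1 to 0.36 on corn oil replicate 3, whereas the immunoproteasome and PA28 genes and the constitutive catalytic subunits lie at 0.08 to 0.65 and 0.13 to 0.54 on the treated arrays, above all corn oil arrays; with spike-in scaling the change of every gene is lower by 0.32.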

How the data were processed

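Renal cortex RNA of 6 rats was measured on 1-colour arrays. Per the file headers, spots were read with Agilent Feature Extraction 10.7.1.1 (10.7 per the submitters' processing notes), which also subtracted the background and detrended the deposited intensity, on a linear scale. The authors' value table holds a deposited ratio, each intensity over its array's 75th percentile; column medians were 0.103 to 0.107. Its columns fit scanner files of their own group but of other replicate numbers (SD of the log2 difference 0.0003 to 0.0004), and the numbers of the scanner files are used.

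Of 61657 non-control probes, 64 with an outlier mark were dropped, and the 40894 well above background on every array of a group were used. No probe was saturated. Genes were named through the RefSeq accession of a probe (GRCr8 gene table), each represented by its brightest kept probe. The log2 intensity minus the array's 75th percentile was compared between groups in limma 3.58.1 (lmFit and eBayes; R 4.3.3), with all 6 arrays and no block. Benjamini-Hochberg adjustment ran over 11748 genes. The fit had 4 residual and 2.21 prior degrees of freedom, and 95% intervals come from its moderated t distribution. The number of arrays limits the precision.

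All 32 listed genes are named whatever their values. From each wider list the rule names genes past the adjusted threshold, the 3 with the lowest p and partners of the listed genes. The listed genes and the wider lists were chosen with earlier results of these data known, so lists are described and not tested. Promoter stretches are from RefSeq (GRCr8). The array's own annotation used another build, and its coordinates were not used.

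Alternatives were normexp background correction (offset 50), quantile, median and spike-in scaling, the authors' table, other filters, blocks for replicate number and for slide, probe means, trend and robust settings of eBayes, and leaving out each array. Some genes of the lists are not reported here by name.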

Additional observations from a re-analysis of the deposited data

How the results depend on the processing

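In no alternative did any of the 30 genes pass an adjusted p of 0.05 in limma; the lowest was 0.0647, without treated replicate 1. Of 510 values compared over 17 alternatives, 445 kept their sign and 65 changed it. The count of kept signs overstates the agreement. The replicate block, the eBayes settings, the authors' table and the other filters gave the changes of the main fit, to rounding. Under at least 1 alternative 23 genes changed sign, and Ifit2, Irf1, Irf3, Psmb8, Psmb9, Psmb10 and Psme2 did under none. The count lower at an unadjusted p under 0.05 was 1 and became 0 with normexp, median scaling, no filter on dim probes, and trend and robust settings; the last raised the count higher from 3 to 5. With quantile normalization the count lower stayed at 1, but the gene was Irf3 in place of Irf8. With spike-in scaling 0 were higher and 5 lower, and the medians were -0.35 for regulators, -0.080 for class I and -0.23 for class II. Corn oil replicate 2 was alone on its slide, so the slide block and the fit without that array are a single check. The same replicate numbers did not pair the animals (correlations of 0.0065, -0.050 and -0.032); with the number as a replicate block, 2 genes were higher (Irf1 and Psme2) and 1 lower, and 0 passed the adjusted threshold, with a lowest adjusted p of 0.255. The number of arrays, 3 per group, and dim probes, such as those of Irf8, Cd86 and Oasl, limit these values.

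Leaving out each array in turn gave 2 to 8 genes higher, 0 to 2 lower and a regulator median of -0.22 to 0.097. The changes then ran from -0.15 to 0.12 for Cd74, -0.26 to 0.042 for Ciita, -0.24 to 0.25 for Ifi44, -0.17 to 0.055 for Ifih1, -0.22 to 0.34 for Ifit3, -0.22 to 0.47 for Irf7, -0.39 to 0.003 for Irf9, -0.004 to 0.71 for Isg15, -0.29 to 0.005 for Mx1, -0.43 to 0.34 for Oas1a, -0.12 to 0.32 for RT1-Bb, -0.41 to 0.52 for RT1-Db1, -0.014 to 0.23 for Tap1, -0.031 to 0.23 for Tapbp and -0.38 to 0.30 for Usp18. Other changes of sign were as follows, and their cause was not tested. Normexp gave 0.006 for Irf8, 0.042 for Usp18, 0.10 for Ifih1, -0.020 for Cd74 and 0.007 for Ciita. Quantile normalization gave -0.18 for Mx2, -0.001 for Ifi44, -0.092 for B2m, -0.19 for Cd74 and -0.038 for RT1-Bb. Spike-in scaling gave -0.22 for Irf7, -0.23 for Stat2, -0.26 for Mx2, -0.022 for Isg15, -0.32 for Ifi44, -0.31 for Ifit3, -0.087 for Gbp2, -0.082 for Psme1, -0.22 for Tap1, -0.18 for Tap2, -0.24 for Tapbp, -0.080 for B2m, -0.31 for Cd74, -0.084 for RT1-Da, -0.21 for RT1-Db1 and -0.23 for RT1-Bb. The slide block gave -0.049 for Ifi44, -0.008 for Ifit3, -0.031 for Tapbp, -0.088 for Cd74 and -0.38 for RT1-Db1. The mean over probes gave -0.18 for Mx2, -0.019 for Ifi44 and -0.14 for Ifit3.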

Other observations

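The arrays of corn oil replicate 3 and treated replicate 1, on which the RT1-Bb probe A_44_P552452 was bright, were set beside all RT1 probes after its values were seen. These arrays were the 2 highest for 11 of 62 probes of 36 RT1 genes (17.7%), against 3.49% of 22104 named probes, and the 2 lowest for 15 of the 62 (24.2%), against 4.57%. The 62 include that probe, and over the 54 probes of the other 34 RT1 genes, without RT1-Bb and RT1-Db1, the counts were 8 (14.8%) and 12 (22.2%). Probes of one gene and of close paralogs share sequence and are not independent, and no test was made.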
